A study of Drosophila melanogaster with 13 samples.

Results

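Ultrabithorax (Ubx) was profiled by ChIP-Seq in Kc167 cells with and without its cofactor Homothorax (Hth), and the 2 resulting sets of binding peaks are compared here. The members are the peaks of Ubx + Hth and of Ubx alone from Experiment 2, taken from 1 stringent list (q-value 1e-10) and 1 relaxed list (q-value 1e-2) per condition. Peaks of the 2 lists were taken as partners where their overlap made up 5% or more of the width of each. The stringent lists held 7971 Ubx + Hth peaks and 4218 Ubx peaks, which together are 12189 of the 34149 stringent peaks of the series. The relaxed lists held 11698 Ubx + Hth peaks and 8672 Ubx peaks, of 59671 in the series.

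Kc167 is a Drosophila cell line derived from female late embryos. Ubx + Hth cells carried an inducible vector in which the metallothionein promoter drives one transcript for Hth and GFP-tagged Ubx, separated by a self-cleaving peptide, and were profiled in 2 libraries. Ubx cells carried the same kind of vector for GFP-tagged Ubx alone and were profiled in 1 library. The cells of both conditions came from a single mother plate, were transfected transiently, sorted for equal GFP and precipitated with an anti-GFP antibody. The chromatin was thus recovered through Ubx in both conditions, and Hth itself was not profiled. The reads were 100 bp long, and peaks were called against the input of Experiment 1, whose reads were 36 bp long. The series also holds lists for Ubx, Abd-A and Abd-B of Experiment 1 and for a mutant Ubx of Experiment 2 with changed DNA-contacting residues of the homeodomain, and these serve below as further lists in which to look for a partner.

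Hox proteins such as Ubx set segment identity along the body axis, yet their homeodomains recognise short and similar sequences on their own. Hth and Extradenticle (Exd) are homeodomain proteins of the TALE class that bind DNA together with Hox proteins and are the best known Hox cofactors in the fly. Hth carries a domain that binds Exd and controls whether Exd is nuclear, and Kc167 cells make Exd but no Hth of their own. The comparison asks how the sites of Ubx differ when Hth is expressed with it.

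Each condition has a single list per q-value, called on the combined reads of 2 libraries for Ubx + Hth and on 1 library for Ubx alone, so no replicate error exists for any value below and no test between the conditions was possible. The study's read table lists several times more reads for Ubx + Hth than for Ubx alone. Read depth, number of libraries and the presence of Hth changed together, and their parts in any difference cannot be told apart. Intervals are 95% intervals (Wilson for shares, exact order-statistic for medians) and cover the counting of peaks only. Each peak carries a score, -log10 of the q-value given by the peak caller. Because a score also depends on depth, the lists were compared mainly by rank.

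The Ubx + Hth list was longer at both q-values, and more so at the stringent one. At q-value 1e-10 it held 1.89 times as many peaks as the Ubx list, and at q-value 1e-2 it held 1.35 times as many. Stringent peaks covered 5468 kb with Hth and 2575 kb for Ubx alone. The stringent list was 68.1% as long as the relaxed one for Ubx + Hth, and 48.6% as long for Ubx alone. The median score was 50.1 for Ubx + Hth and 31.2 for Ubx alone, and the highest scores were 523 and 359 in the same order. Median widths were alike, at 483 bp for Ubx + Hth and 464 bp for Ubx alone.

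Of the 7971 stringent Ubx + Hth peaks, 4095 (51.4%; 50.3 to 52.5) had no stringent Ubx partner and are called gained peaks below. Most of the gained peaks nevertheless lay at sites that were also called for Ubx alone at the relaxed q-value. Such a relaxed partner was found for 3057 of them, which are 38.4% of the Ubx + Hth list (37.3 to 39.4). The remaining 1038 peaks, 13.0% of the list (12.3 to 13.8), had no Ubx partner at either q-value. The peaks with a stringent Ubx partner, 3876 in number, are called common peaks.

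The 3 classes differed in score and width. The median score was 31.2 (29.6 to 32.6) for Ubx + Hth peaks without any partner and 34.6 (33.8 to 35.4) for those with only a relaxed partner, against 82.7 (80.5 to 84.5) for common peaks. Their median widths were 290 bp, 362 bp and 748 bp in the same order. Gained peaks thus sat mainly in the lower part of the Ubx + Hth list. Among the highest-scoring 10% of that list, 3.26% of peaks had no Ubx partner at either q-value and 7.14% had only a relaxed one, while 89.6% were common. Among the lowest 10%, 28.0% had no partner and 63.7% had only a relaxed one, while 8.28% were common.

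**Figure D1:**
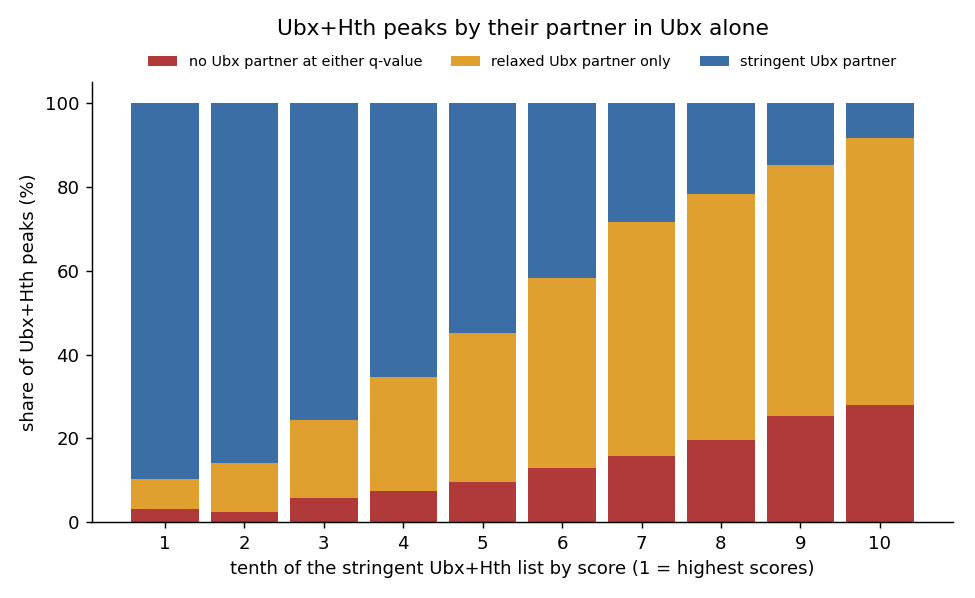
Share of the stringent Ubx + Hth peaks (vertical axis, %) without a Ubx partner at either q-value, with a relaxed partner only, and with a stringent partner, in 10 parts of the list ordered by score (horizontal axis). The share with a stringent partner is 89.6% in the first part and 8.28% in the last.

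The relaxed partners of gained peaks were not all weak. Their Ubx score had a median of 12.5 and quartiles of 8.74 and 16.8, so that many exceeded 10, the score that corresponds to the stringent q-value. A relaxed Ubx peak can score over 10 and still leave no entry in the stringent Ubx list. This was so for 2290 of the 6008 relaxed Ubx peaks with a score of 10 or more (38.1%), and for 2442 of the 9321 such Ubx + Hth peaks (26.2%). The narrowest peak of the Ubx + Hth lists was 197 bp wide and that of the Ubx lists 229 bp wide, each at both q-values, and no peak was narrower than this floor of its condition. How wide the stretch past the stringent q-value was at each relaxed peak cannot be read from the lists.

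Counted by these relaxed partners, the gained peaks formed 4 tiers. For 1822 gained peaks (44.5%; 43.0 to 46.0) the relaxed Ubx partner had a score of 10 or more and held no stringent Ubx peak. Another 275 (6.72%) lay in a wider relaxed Ubx peak that held a stringent Ubx peak elsewhere, at a median gap of 382 bp. A relaxed partner with a score under 10 was found for 960 (23.4%), and 1038 (25.3%) had no partner. The sites without any called Ubx peak past a score of 10 thus made up a smaller group than the gained peaks as a whole.

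Seen from the relaxed Ubx list, the share with a stringent Ubx + Hth peak was larger at higher Ubx scores. A stringent Ubx + Hth partner was found for 19.2% (15.4 to 23.8) of the relaxed Ubx peaks with a score from 2 to 4, for 28.8% of those from 4 to 6, for 41.2% of those from 6 to 8 and for 55.7% of those from 8 to 10. At a score of 10 or more it was found for 90.1%. In the stringent Ubx list of Experiment 1, which was made from 2 libraries without Hth and is shorter, the shares over the same ranges were 1.78%, 6.03%, 8.93%, 16.4% and 67.5%. Relaxed Ubx peaks with a score under 10 therefore met a stringent Ubx + Hth peak in 37.8% of cases (36.0 to 39.7) and a stringent Ubx peak of Experiment 1 in 8.86% (7.84 to 10.0).

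The 5 strongest partnerless Ubx + Hth peaks all ranked among the first 235 of their list. The highest lay on 2L from 14540328 to 14541287 of BDGP release 5, with a score of 268 and rank 106. The next lay on 2L from 12499768 to 12500210 (score 252, rank 145) and had no partner in any other list of the series at either q-value. The peak on 2R from 20196478 to 20198086 (score 244, rank 172) was 1609 bp wide and lay 88938 bp from the nearest stringent Ubx peak but 1458 bp from a relaxed one. Nearness to a Ubx site thus differed among these strong peaks. The peak on 3R from 19185923 to 19186863 (score 231, rank 223) lay 1452 bp from a stringent Ubx peak. The peak on 3R from 11492629 to 11493415 (score 228, rank 235) lay 112 bp from a relaxed Ubx peak and was the one with a stringent Abd-B partner (score 55.2). Of the 5 peaks, none had a stringent partner in the Ubx list of Experiment 1 or in the mutant list. Both peaks on 3R had a relaxed partner in Ubx of Experiment 1, with scores of 4.80 (rank 223) and 8.18 (rank 235), and the others had none. Relaxed Abd-A partners were found for the peaks of ranks 106, 172 and 235, with scores of 5.57, 12.1 and 18.5. No genes are given for these positions, as no annotation of the same release was at hand.

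Of the 4218 stringent Ubx peaks, 74 (1.75%; 1.40 to 2.20) had no stringent Ubx + Hth partner. This count depends on the length of the Ubx + Hth list and on the overlap required. It was 874 (20.7%) when both lists were shortened to 4218 peaks, and 1298 (30.8%) at 50% reciprocal overlap. Of the 74 peaks, 65 had a relaxed Ubx + Hth partner and 9 had none at either q-value. They were low-scoring and narrow, with a median score of 17.4 (15.4 to 18.5), against 31.6 (31.1 to 32.1) for the Ubx peaks that had a partner, and a median width of 267.5 bp against 471 bp. Among the highest-scoring 10% of the Ubx list, 1 of 422 peaks lacked a stringent Ubx + Hth partner.

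The 5 highest-scoring of these Ubx peaks differed in the other lists. The first, on 3R from 5610065 to 5610433, had a score of 97.7 and rank 220 and lay 447 bp from the nearest Ubx + Hth peak. It had a stringent partner in the mutant list (score 25.8) and none in the lists of Experiment 1. The same held for the peak on 3L from 24168103 to 24168894 (Ubx score 50.9, mutant score 66.8), which had a relaxed Ubx + Hth partner of score 15.0. Sites of this kind were called for the mutant, which is changed at residues that contact DNA. The peak on X from 13894272 to 13894774 (Ubx score 37.9, mutant score 15.8) was also of this kind, with a relaxed peak in Ubx of Experiment 1 (score 2.74). The peak on 2L from 11546932 to 11547723 (score 59.1) had stringent partners in Ubx (score 39.98), Abd-A (score 57.2) and Abd-B (score 50.4) of Experiment 1. It also had a relaxed mutant partner (score 17.6) and lay 5753 bp from the nearest Ubx + Hth peak. The peak on X from 14849254 to 14849494 (score 37.7) had a relaxed Ubx + Hth partner of nearly the same score (36.8).

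The 9 Ubx peaks without a Ubx + Hth partner at either q-value include 1 that owes its place to the overlap rule. It lies on 2L from 223001 to 223246 (score 22.3), wholly inside a Ubx + Hth peak from 220489 to 225508, of which it covers 4.90%. Of 4182 overlapping pairs of stringent peaks, 4 fell short of the 5% limit, at 0.603%, 3.50%, 4.27% and 4.90%, and the lowest pair inside it was at 5.21%. Besides the peaks on 3R, 2L and X above, the other 5 were on X and 3R. The strongest of them was on X (21765453 to 21766045) with a score of 32.7, and it too had a stringent mutant partner (score 25.9) and none in Experiment 1. Scores of 19.4 and 15.8 belonged to peaks on 3R (27425724 to 27425963, and 17767463 to 17767748). The remaining 2, with scores of 10.9, were on X (13179443 to 13179673) and on 3R (6586341 to 6586589), of which the one on 3R was 2 bp away from a relaxed Ubx + Hth peak.

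Common peaks matched mostly one to one. There were 3541 such pairs, in which the Ubx + Hth peak and the Ubx peak had no other partner. Their centres were close, with a median offset of 56 bp (52.5 to 59), and in 69.5% of pairs they lay within 100 bp. The score was higher in Ubx + Hth in 3457 pairs (97.6%) and lower in 84.

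The order of the sites was kept in part. Spearman's rho between the scores of the 2 lists was 0.70 over the 3541 pairs, which share the input control and are not independent replicates. The 100 highest-scoring Ubx + Hth peaks included 94 with a Ubx partner, and 39 of them were matched to one of the 100 highest-scoring Ubx peaks. Those 100 Ubx peaks all had a Ubx + Hth partner. In each list a percentile rank was set, with 100 for the highest score and 0 for the lowest. The Ubx + Hth percentile was higher than the Ubx percentile by a median of 11.7 points (10.7 to 12.8), which follows from the place of the gained peaks in the lower part of the longer list. Ranked among the 3541 pairs alone, the difference had a median of -1.48 points, with 5% of pairs below -33.6 and 5% above 42.0. It was within 10 points in 41.3% of pairs, more than 25 points up in 12.6% and more than 25 points down in 11.6%.

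**Figure D2:**
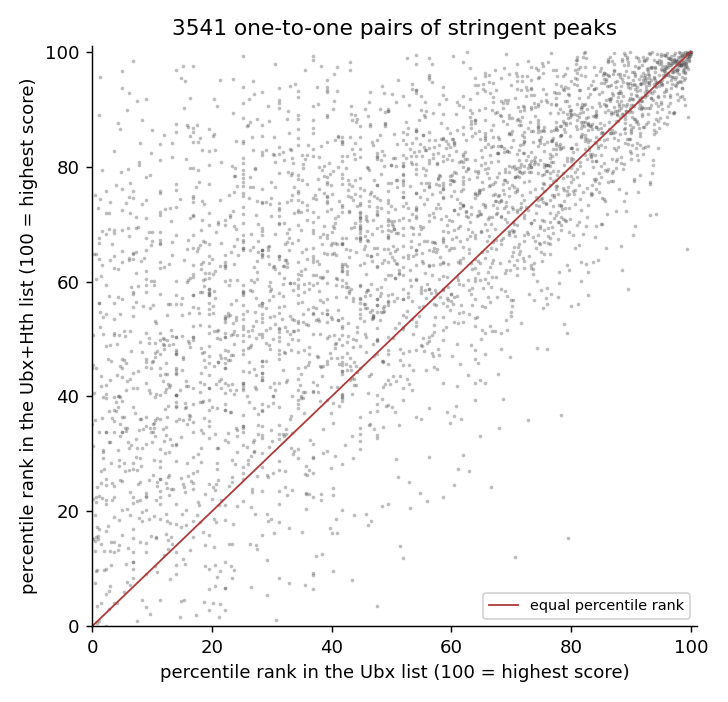
Percentile rank of the Ubx + Hth peak in its list (vertical axis) against that of its Ubx partner (horizontal axis), 1 point for each of the 3541 one-to-one pairs, with the line of equal ranks. Points are spread over the whole upper left, where weak Ubx peaks meet strong Ubx + Hth peaks, and are sparse at the lower right.

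The 5 largest upward differences joined peaks near the foot of the Ubx list to peaks near the head of the Ubx + Hth list. On 3L the Ubx + Hth peak from 3423316 to 3424060 had a score of 206 and rank 350, while its Ubx partner from 3423582 to 3423853 had a score of 12.6 and rank 4163. On 2L from 7084604 to 7085623 the Ubx + Hth score was 259 (rank 129) and the Ubx score 15.8 (rank 3915). Both sites were also strong in Abd-B of Experiment 1, with relaxed-list scores of 183 and 206. The pair on 2L from 6356691 to 6357466 had a Ubx + Hth score of 220 (rank 273) and a Ubx score of 15.0 (rank 3995). The pair on 2L from 1462421 to 1462961 had scores of 185 (rank 500) with Hth and 15.0 (rank 3995) for Ubx alone. The pair on X from 13283576 to 13286921 had scores of 148 (rank 872) with Hth and 12.5 (rank 4165) for Ubx alone. In the relaxed lists of Experiment 1 the 5 sites had scores from 12.4 to 30.5 for Ubx and from 112 to 206 for Abd-B.

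Percentiles in the full lists count the gained peaks as well, whereas among the pairs alone the differences ran from -77.2 to 91.5 points. The largest downward difference in the full lists was on 4, where the Ubx + Hth peak from 613841 to 614300 had a score of 24.4 and rank 6741 and its Ubx partner a score of 53.5 and rank 868. This site scored 117 in the mutant and had no partner in the relaxed Ubx and Abd-B lists of Experiment 1. The next was on X from 9540120 to 9540560, with scores of 22.3 (rank 7004) with Hth and 43.9 (rank 1240) for Ubx alone. The third was a pair on 3L from 16044102 to 16044418, with scores of 16.6 with Hth and 30.1 for Ubx alone. It was followed by a pair on 3L from 14541234 to 14541694 (29.7 with Hth and 40.3 for Ubx alone) and a pair on 2L from 2759731 to 2760188 (38.3 with Hth and 52.2 for Ubx alone). Among the pairs alone the last 3 differences were -47.1, -60.0 and -65.6 points. Unlike the site on 4, these 3 were strong in Abd-B of Experiment 1, with scores from 78.7 to 133.5. The site on X scored 5.01 there. An Abd-B peak was not particular to large rises or falls, since 97.0% of all pairs had a stringent Abd-B partner.

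The 3 pairs with the best mean rank, which were chosen for ranking high in both lists, are given as a description. The first lay on 2L from 21424904 to 21425319 and ranked 2 in both lists (score 406 with Hth and 343 for Ubx alone). It scored 379 in the mutant and had no partner in the relaxed Ubx and Abd-B lists of Experiment 1. The next 2 lay on X from 13782351 to 13785776 (rank 3 with Hth and 6 for Ubx alone) and from 12627727 to 12630774 (rank 8 with Hth and 4 for Ubx alone), and scored from 298 to 345 in Ubx and Abd-B of Experiment 1.

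The 10% of pairs with the largest upward difference and the 10% with the largest downward difference (354 pairs each) were also looked up in the other lists. A stringent mutant partner was found for 13.3% (10.1 to 17.2) of the pairs ranked higher with Hth and for 32.8% (28.1 to 37.8) of those ranked lower, with 33.3% over all pairs. Shares with a stringent Ubx partner of Experiment 1 were alike, at 85.3% of those ranked higher and 82.2% of those ranked lower. So were those with a stringent Abd-B partner, at 97.2% and 95.8%. The pairs ranked higher had lower Ubx scores (median 22.0) than those ranked lower (median 38.5), and mutant partners were rarer at lower Ubx scores. To compare sites of like Ubx score, the pairs were divided into 5 parts by Ubx score, and each part at its median Ubx + Hth score. In the part with the highest Ubx scores, 84.2% (80.02 to 87.6) of the pairs above that median had a stringent mutant partner and 66.2% (61.1 to 70.9) of those below it, where the median Ubx score also differed (91.7 above and 64.3 below). In the second part the shares were 46.0% (40.9 to 51.3) above and 39.0% (34.0 to 44.2) below, in the third 23.7% above and 22.0% below, and in the next 16.9% above and 13.8% below. In the part with the lowest Ubx scores, 9.89% (7.195 to 13.4) of the pairs above the median had one and 11.3% (8.41 to 15.0) of those below it, and outside the part with the highest Ubx scores the intervals overlapped. A stringent Ubx partner of Experiment 1 was found in the lowest part for 75.4% (70.7 to 79.6) of the pairs above the median and for 53.4% (48.2 to 58.5) of those below it.

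Over 2830 sites with a single stringent peak in Ubx + Hth, Ubx and Ubx of Experiment 1, the scores of the 2 Ubx lists without Hth correlated best (rho 0.76), Ubx + Hth and Ubx of Experiment 1 next (0.71) and Ubx + Hth and Ubx of Experiment 2 least (0.68). For Abd-B, rho was 0.47 with Ubx + Hth and 0.41 with Ubx alone over 2690 sites. For the mutant it was 0.38 with Ubx + Hth and 0.45 with Ubx alone over 1076 sites. These values describe the lists, whose points share one input control, and are given without a test.

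Ubx + Hth peaks were wider than their Ubx partners. In the one-to-one pairs the median width was 709 bp with Hth and 457 bp for Ubx alone, and the median ratio of widths was 1.34 (1.32 to 1.36), with quartiles of 1.13 and 1.78. The Ubx + Hth peak was the wider one in 3161 pairs (89.3%) and over 2 times as wide in 647 (18.3%). It enclosed the whole Ubx peak in 2448 pairs (69.1%), while the Ubx peak enclosed it in 122 (3.45%). The added width was nearly equal on the 2 sides, with medians of 71 bp on the left and 75 bp on the right. Depth differed between the conditions too, and its part in the widths was not tested.

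The ratio of widths was larger at weak Ubx peaks. Over the same 5 parts by Ubx score, the median ratio was 1.23 (1.21 to 1.25) in the highest part and 1.57 (1.50 to 1.62) in the lowest. In the highest part the median widths were 1085 bp with Hth and 799 bp for Ubx alone. In the lowest part they were 565.5 bp with Hth and 322 bp for Ubx alone. The narrow peaks at the weakest Ubx sites thus differed most in relative terms only. In bp the gap between the medians was not larger in the lowest part than in the highest. Ubx width is the divisor of the ratio, and Spearman's rho between the 2 was -0.27. Ubx width was also smaller at low Ubx scores, by which the pairs were divided, so the trend cannot be separated from that division.

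**Figure D3:**
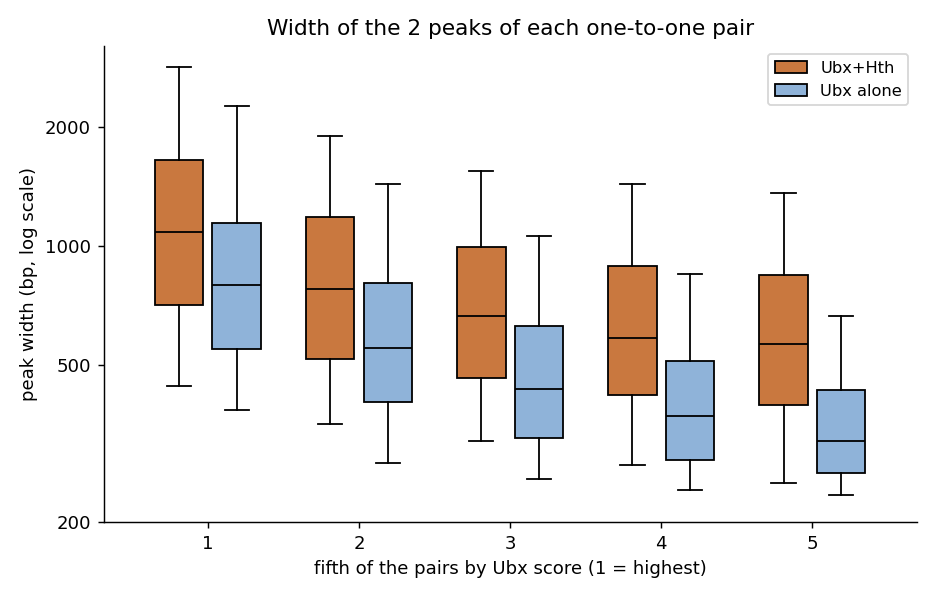
Width of the Ubx + Hth peak and of its Ubx partner (vertical axis, bp, log scale) in the 3541 one-to-one pairs, divided into 5 parts by Ubx score (horizontal axis). Boxes show the median and quartiles and whiskers the range from 5% to 95% of pairs, and the median with Hth lies above that of Ubx alone in every part.

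The 3 largest ratios belonged to broad Ubx + Hth peaks over a single narrow Ubx peak. On X the Ubx + Hth peak from 13283576 to 13286921 was 3346 bp wide and its Ubx partner 320 bp wide, a ratio of 10.5. On 3L the peak from 9087978 to 9090978 was 3001 bp wide with Hth and its partner 336 bp wide for Ubx alone (ratio 8.93). On 2L the peak from 3152001 to 3154054 was 2054 bp wide with Hth and its partner 232 bp wide for Ubx alone (ratio 8.85). All 3 also ranked far higher with Hth, by 65.6 to 87.9 percentile points. The 3 smallest ratios, 0.37 on X from 10455336 to 10455544, 0.41 on 2L from 21156070 to 21156403 and 0.49 on 3R from 163372 to 163677, came from Ubx + Hth peaks 209 to 334 bp wide over Ubx peaks 565 to 822 bp wide.

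Merging of neighbouring Ubx peaks was more frequent than splitting. There were 267 Ubx + Hth peaks that each joined several Ubx peaks, of which 241 joined 2, 20 joined 3 and 6 joined 4. In the opposite direction 31 Ubx peaks were each divided over 2 Ubx + Hth peaks, and 3 further groups held 2 peaks of each list. The joining peaks were broad and strong, the median width being 2183 bp, the median score 145 and the median of the widest bridged gap 363 bp. In 240 of the 267 cases (89.9%; 85.7 to 93.0) the Ubx peaks joined by a Ubx + Hth peak already lay within 1 relaxed Ubx peak. For all 31 divided Ubx peaks, the Ubx + Hth parts likewise lay within 1 relaxed Ubx + Hth peak, with a median gap of 253 bp between the parts. At the relaxed q-value, most of these joined or divided peaks were thus a single peak in the list where they appeared as several. Joins also outnumbered divisions between the 2 Ubx lists without Hth. There 135 stringent peaks of Experiment 1 joined several peaks of Experiment 2, and 60 peaks of Experiment 2 were divided. Against Ubx of Experiment 1, Ubx + Hth showed 242 joins and 115 divisions.

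The 3 highest-scoring of the Ubx + Hth peaks that joined 4 Ubx peaks lay on 3R and X. On 3R the peak from 12054475 to 12058762 (score 272, rank 93) joined Ubx peaks with scores of 107, 16.3, 109 and 60.1. On X the peak from 7584583 to 7593116 (score 269, rank 103) was 8534 bp wide, the widest of the Ubx + Hth list, and joined Ubx peaks with scores from 28.3 to 70.2 that filled 73.4% of it. On X the peak from 5810803 to 5814992 (score 220, rank 274) joined 4 Ubx peaks that did not share a relaxed Ubx peak and filled 48.8% of it. Among divided Ubx peaks, the strongest was that of 19139930 to 19141286 on 3R, whose Ubx + Hth parts scored 168 and 99.4 and whose own score was 110. Next came that of 13089553 to 13091858 on 2L, with Ubx + Hth parts of 42.7 and 204 and a Ubx score of 104. The third, of 5376142 to 5377531 on 3R, had Ubx + Hth parts of 110 and 151 and a Ubx score of 64.4. In these 3 cases the parts were 207 to 242 bp apart.

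Gained peaks lay at a moderate distance from Ubx peaks. The gap between a gained Ubx + Hth peak and the nearest stringent Ubx peak had a median of 5268 bp (4906 to 5583), and 48.8% (47.3 to 50.3) were within 5 kb and 17.5% within 1 kb. At the far end 243 (5.93%) were over 50 kb away. The gap was longer for the peaks without any partner (6536 bp; 5738 to 7326) than for those with a relaxed partner (4806 bp; 4434 to 5268). The latter include the 275 peaks whose relaxed Ubx partner also held a stringent Ubx peak, which are close to one by definition (median gap 382 bp). Where the relaxed partner scored 10 or more and held no stringent peak, the median gap was 6057 bp. Where it scored under 10, the median gap was 5306 bp. The contrast thus rests in part on the definition of the classes. For comparison, common Ubx + Hth peaks were a median of 4063 bp (3791 to 4310) from the nearest Ubx peak other than their partners, and Ubx peaks a median of 3165 bp from each other. The gained peaks were thus spaced from Ubx peaks only somewhat more widely than common peaks were from further Ubx peaks. Unmatched peaks of a list without Hth lay at nearly the same distance. Stringent Ubx peaks of Experiment 1 without a partner in Ubx of Experiment 2 were a median of 5254 bp from the nearest Ubx peak of Experiment 2.

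The share of gained peaks without a relaxed partner was larger at longer gaps. It was 20.1% (17.4 to 23.2) at gaps up to 1 kb and 33.3% (27.7 to 39.5) at gaps over 50 kb. This trend is in part built in. The 275 gained peaks in a relaxed Ubx peak that also held a stringent one had a median gap of 382 bp. By definition they have a relaxed partner, and they lower the share at short gaps. Scores hardly changed with the gap, with medians of 32.0 at gaps up to 1 kb and 35.3 at gaps over 50 kb. The 1998 gained peaks within 5 kb had 1496 distinct Ubx peaks as their nearest, 35.5% of the Ubx list, and up to 6 gained peaks shared one. Those Ubx peaks did not stand out in score, with a median of 31.0 against 31.5 for the other Ubx peaks. The peaks without any partner lay a median of 1959 bp (1701 to 2329) from the nearest relaxed Ubx peak.

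Of the 5 gained peaks farthest from any stringent Ubx peak, 4 had a relaxed Ubx partner. The farthest lay on 3R from 1996506 to 1996716 (score 24.1), at 162 kb, and the next on X from 22414955 to 22415470 (score 46.5), at 157 kb. Both overlapped a relaxed Ubx peak. The other 3 were neighbours on 3R between 18020852 and 18023694, at 152 to 155 kb from a stringent Ubx peak. The strongest of these ran from 18021849 to 18022861 (score 179, rank 551) and overlapped a relaxed Ubx peak. The one without a partner ran from 18023425 to 18023694 (score 44.2) and lay 631 bp from a relaxed Ubx peak.

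Gained peaks were spread over the whole genome. Their share of the Ubx + Hth peaks was 53.9% on 2L, 51.4% on 2R, 53.2% on 3L, 50.1% on 3R, 56.0% on 4 (of 84 peaks) and 48.5% (45.9 to 51.1) on X. The share without any partner varied more, from 15.6% (13.8 to 17.7) on 2L and 15.0% (13.4 to 16.9) on 3L to 10.4% (8.96 to 12.1) on X and 7.14% on 4. The chromosomes were cut into windows of 100 kb, and 1042 of the 1114 windows with a peak of either list held a gained peak. The number of gained peaks per window followed the number of Ubx peaks loosely (Pearson's r 0.47), and the number of peaks without any partner less so (r 0.21), over 1114 windows that differ in peak density and share libraries.

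Only 130 windows held gained peaks and no stringent Ubx peak, and these held 273 gained peaks (6.67%). In 16 of them no relaxed Ubx peak was called either. Neighbourhood in the list told little about gained peaks as a whole, since the next Ubx + Hth peak along a chromosome was a gained one in 52.5% (50.9 to 54.0) of cases after a gained peak and in 50.2% (48.6 to 51.8) after a common peak. Gained peaks had another Ubx + Hth peak within 5 kb in 73.1% of cases (71.7 to 74.4), and common peaks in 76.3% (74.97 to 77.6). Peaks without a partner at either q-value did tend to neighbour each other. The next peak was of the same class in 20.2% (17.8 to 22.7) of cases after such a peak and in 12.0% (11.2 to 12.8) after any other.

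**Figure D4:**
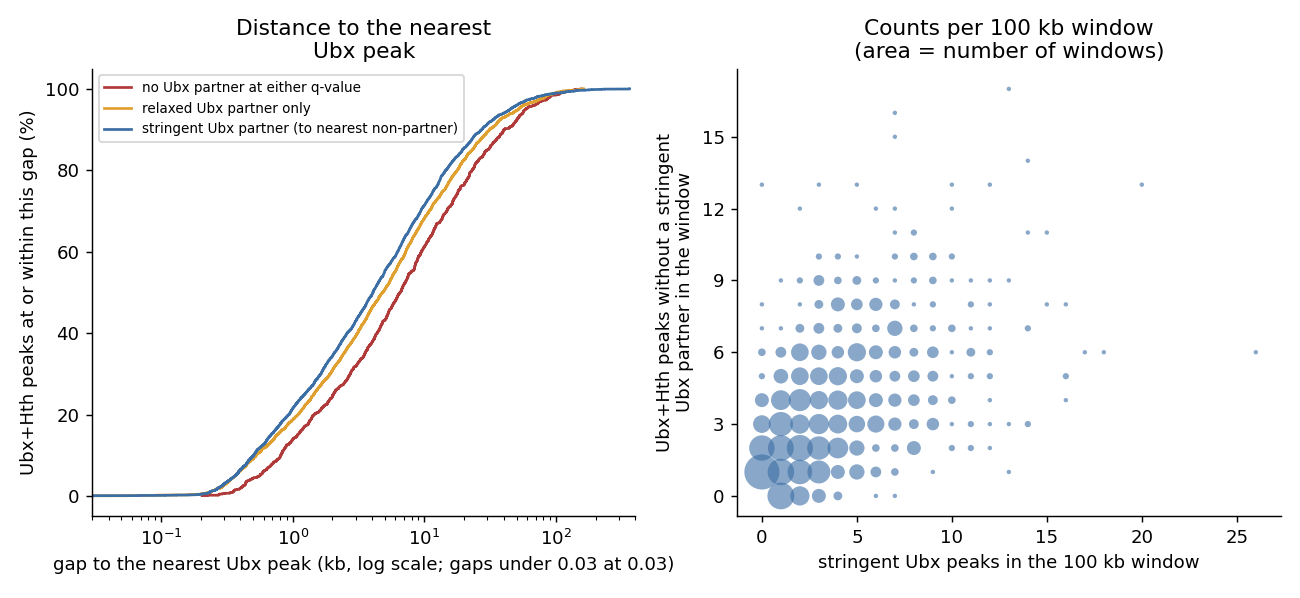
Left, share of Ubx + Hth peaks of each class (vertical axis, %) at or within a given gap from the nearest stringent Ubx peak (horizontal axis, kb, log scale), leaving out the partners of common peaks. Right, gained peaks per 100 kb window (vertical axis) against Ubx peaks per window (horizontal axis), where the area of a point gives the number of windows. The curve of peaks without any partner lies to the right of the others, and windows with many gained peaks occur both with and without many Ubx peaks.

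The windows with the most gained peaks were on 3R, 2L and 3L. The window on 3R from 5.9 Mb held 29 Ubx + Hth peaks, of which 17 were gained, and 13 Ubx peaks. The window on 2L from 12.4 Mb held 23 Ubx + Hth peaks, of which 16 were gained, and 7 Ubx peaks. The window on 3L from 9.4 Mb held 22 Ubx + Hth peaks, of which 15 were gained, and 7 Ubx peaks. Between 5 and 8 of the gained peaks in each of these windows had no Ubx partner at either q-value.

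One further region, chosen after its values were seen, held the densest group of sites without any Ubx partner. On 2L the window from 14.5 Mb had 16 Ubx + Hth peaks and 3 Ubx peaks, and 13 of the Ubx + Hth peaks had no partner at either q-value. Within it 11 such peaks followed each other without interruption between 14526208 and 14581257, a span of 55.0 kb. No other run of this class was longer than 6. The run included the highest-scoring partnerless peak named above (score 268). Its next strongest members were 3 peaks 933 to 996 bp wide that started at 14534202 (score 209, rank 332), 14560073 (score 166, rank 665) and 14558497 (score 100.5, rank 1693). The other 7 had scores from 21.0 to 80.9. Of the 11 peaks, 1 had a relaxed Abd-B partner and 1 a relaxed Abd-A partner, and none had a relaxed partner in Ubx of Experiment 1 or in the mutant. The longest run of gained peaks of either class was 15, on X between 3191355 and 3294014, and 6 of those had no relaxed Ubx partner.

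The share of Ubx + Hth peaks with a partner in the other lists differed between the classes. The classes were set by the peaks of Ubx alone in Experiment 2. For Ubx of Experiment 1, the same protein without Hth, the order of the classes thus follows in part from their definition. A stringent Ubx peak of Experiment 1 was found for 4.43% (3.34 to 5.86) of the Ubx + Hth peaks without any partner and for 34.2% (32.6 to 35.9) of those with only a relaxed partner, against 87.2% (86.1 to 88.2) of common peaks. For Abd-A the shares were 11.5%, 52.8% and 93.2% in the same order. For Abd-B they were 51.8% (48.8 to 54.9), 84.9% and 97.3%. Stringent mutant partners were rare among gained peaks, at 0.771% of those without any partner and 3.93% of those with a relaxed one, against 35.9% of common peaks. The stringent mutant list is short, at 1793 peaks. Relaxed mutant partners were found for 14.3%, 51.7% and 88.2% in the same order. The Abd-B list is the longest of the Experiment 1 lists, with 9681 stringent peaks, against 5656 for Abd-A and 4830 for Ubx. At the relaxed q-value, the share of peaks without any Ubx partner of Experiment 2 that had an Abd-B partner was 72.4%. The share with an Abd-A partner was then 51.8%. A relaxed Ubx partner of Experiment 1 was found for 415 of the 1038 peaks without any Ubx partner of Experiment 2 (39.98%; 37.04 to 42.99). Many of these sites were thus called for Ubx without Hth in the other experiment, mostly at the relaxed q-value only. The relaxed Ubx share of Experiment 1 was 90.6% for peaks with only a relaxed partner and 99.1% for common peaks. List length and the class of a peak cannot be told apart in these shares.

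**Figure D5:**
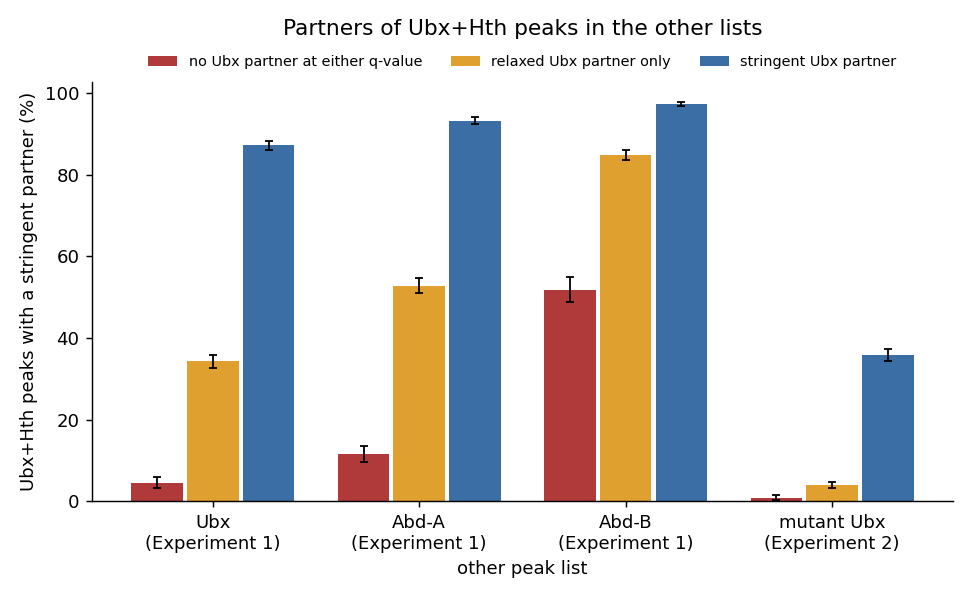
Share of Ubx + Hth peaks of each class (vertical axis, %) with a stringent partner in 4 other lists (horizontal axis), with 95% Wilson intervals that cover the counting of peaks only. Among peaks without a Ubx partner at either q-value the share with a stringent Abd-B partner, 51.8%, is the highest of the 4, and the Abd-B list is also the longest of them.

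Common peaks score higher than gained ones, so the shares with a stringent partner were also taken within ranges of the Ubx + Hth score. Between scores of 40 and 80, a stringent Ubx partner of Experiment 1 was found for 4.72% of the peaks without any partner, for 51.3% of those with a relaxed partner and for 85.7% of common peaks. The Abd-B shares in that range were 50.4%, 88.3% and 96.6% in the same order. Among peaks without any partner the Abd-B share hardly moved with the score, from 54.4% (47.4 to 61.2) at scores from 10 to 20 to 47.3% (37.5 to 57.4) above 80. Of the 1038 peaks without any Ubx partner of Experiment 2, 205 (19.7%; 17.4 to 22.3) had no partner in any of the other relaxed lists either. These 205 peaks are 2.57% of the Ubx + Hth list, with a median score of 33.3 and a median width of 285 bp.

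The Ubx list of Experiment 1 also shows how far 2 lists of Ubx without Hth differed. Of its 4830 stringent peaks, 1313 (27.2%; 25.9 to 28.5) had no partner in the Ubx list of Experiment 2, and 621 of the 4218 peaks of Experiment 2 (14.7%; 13.7 to 15.8) had none in it. Their one-to-one pairs (3252) had a rho of 0.77 and a median width ratio of 1.07 (1.06 to 1.09), Experiment 1 over Experiment 2. Set against this, the Ubx + Hth list had no partner for 51.4% of its peaks, a rho of 0.70 and a median width ratio of 1.34, but it is also the longer list. With both lists shortened to 4218 peaks, 27.4% of the Ubx + Hth peaks had no Ubx partner. Against Ubx of Experiment 1 the values were 43.9% without a partner, a rho of 0.70 and a width ratio of 1.23 (1.22 to 1.24). The 2 Ubx experiments also differ in read length, sequencer and number of libraries.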

How the data were processed

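Peaks were deposited by the authors as 12 lists, 1 per condition and q-value. The deposited score is the -log10 of the q-value. Per the labels and the study's methods, the authors mapped paired reads to BDGP release 5 (dm3), kept unique alignments, pooled replicates where there were several, discarded reads from exons of the expressed transgenes, and ran MACS2 with the Experiment 1 input as control. The submitters' processing notes name Bowtie 1.0.1, SAMtools 0.1.19, bedtools 2.19.1 and MACS2 2.1.0.20140616. Depth cannot be read from the lists.

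Partners (5% reciprocal overlap), groups, gaps between edges and windows were computed with python 3.11.15, numpy 2.4.6, pandas 2.3.3, scipy 1.17.1 and networkx 3.6.1, and drawn with matplotlib 3.10.9. Overlap counts equalled those of bedtools 2.31.1 in 8 of 8 comparisons, and the code was tested on simulated data. The comparisons, members and peaks to be named were chosen with earlier results of these data known. Named peaks are the 5 highest-scoring without a partner in each direction, all Ubx peaks without any partner, the 5 largest rank differences each way, the 3 best-ranked pairs, the 3 Ubx + Hth peaks that joined most Ubx peaks and the 3 Ubx peaks divided most (ties by score), the 3 extreme width ratios at each end, the 5 farthest gained peaks, the 3 fullest windows and mitochondrial peaks. Sequence and genes were not analysed here, since only a release 6 gene table was at hand.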

Additional observations from a re-analysis of the deposited data

How the results depend on the processing

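Each condition has 1 list per q-value, from 2 pooled libraries for Ubx + Hth and 1 library for Ubx alone, so depth and the single Ubx library limit every comparison. No paired analysis was possible because the Ubx + Hth list pools its 2 libraries and Ubx alone has 1, and no replicate was left out for the same reason. The planned analyses of sequence and of genes near peaks were not run. Of 56 alternative values, 25 stayed within 1.5 times the reported count or within the reported interval. Gained peaks were judged here by their count, and their share of the Ubx + Hth list moved more. The share was 51.4% as reported and 63.4% (5051 of 7971) at 50% reciprocal overlap. With q-value 1e-2 for both lists it was 34.2% (4006 of 11698). Overlap of 1 bp and merging of peaks closer than 100 bp moved none of the 8 results, and no peaks of a list were that close. Joins and divisions are excluded at 50% reciprocal overlap by the rule itself, so their change there says nothing about the peaks. The causes of the other changes were not tested.

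With 50% reciprocal overlap, 1298 Ubx peaks lacked a partner, rho was 0.75, the width ratio 1.26, joins 0, divisions 0, the median distance of gained peaks 3133 bp and the share of gained peaks with another Ubx + Hth peak within 5 kb 74.7%. That rule leaves no room for several partners of a peak, so joins and divisions of 0 follow from it, and it also limits the width ratio. The values with q-value 1e-2 follow in the order of the first sentence. With q-value 1e-2 for both lists, the values were 591, 0.76, 1.12, 494, 169, 2582 bp and 77.7%. With both lists shortened to 4218 peaks by score, 1157 Ubx + Hth peaks (27.4%) and 874 Ubx peaks (20.7%) lacked a partner, rho was 0.61, divisions 8, the distance 4754 bp and the share 57.1%. With Ubx of Experiment 1, 213 Ubx peaks lacked a partner, the width ratio was 1.23, divisions 115 and the distance 4184.5 bp. With relaxed lists for partners, 1038 Ubx + Hth and 9 Ubx peaks lacked one. With scores of 20 or more, 41 Ubx peaks did. From centre to centre the distance was 5756 bp, and within 10 kb the share was 85.7%. In an alternative chosen after seeing the data, relaxed peaks with a score of 10 or more that hold no stringent peak also counted as partners, and 2273 Ubx + Hth peaks (28.5%) and 27 Ubx peaks then lacked one.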

Other observations

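The mitochondrial genome carried 1 stringent peak with Hth, from 19002 to 19357 (score 65.6, rank 3024), and 1 for Ubx alone, from 18995 to 19482 (score 71.7, rank 488). The mutant list had a peak at the same place, from 18985 to 19477 (score 117, rank 17), and the lists of Experiment 1 had no mitochondrial peak. Mitochondrial DNA is not packed into nucleosomes and lies outside the nucleus, and what was recovered there was not tested.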
